A study of Mus musculus with 4 samples.

Results

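Insm1 sites that coincided with neither a Neurod1 nor a Foxa2 site were examined in a mouse pancreatic beta cell line. They were chosen by position: a site of the deposited Insm1 list was taken when it shared no base with any site of the deposited Neurod1 and Foxa2 lists. This gave 4667 of 17453 Insm1 sites (26.7%, 95% Wilson interval 26.1 to 27.4%), among 60439 sites in the 3 lists. The share depends on the thresholds of the lists: it was 46.1% when only partner sites with more than the median score of their list were used, and 13.05% among Insm1 sites above the median score. The membership thus rests on the measured binding lists, and all values below describe the sites without a test. The members are called sites with neither partner, which refers to overlap only. A partner site lay within 1 kb of 701 of them (15.0%). This share was 5.62% with partner sites above the median score. It was 27.1% when sharing was defined by summits within 100 bp, which also counts sites that overlap a partner with a farther summit.

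Chromatin immunoprecipitation followed by sequencing (ChIP-seq) isolates DNA fragments bound by a protein with an antibody and maps them to the genome. There was 1 sample each for an Insm1, a Neurod1 and a Foxa2 antibody and for control IgG, and only the first 3 enter with a site list. All samples came from untreated cells of a line made from islets of RIP1-Tag2 mice aged 6 weeks, on a mixed C57BL/6, 129/ola and CBA/J background, at passages 10 to 15 in 25 mmol/l glucose. The RIP1-Tag2 transgene expresses a viral oncogene under an insulin promoter, so the cells are an oncogene-carrying model grown in high glucose. A site list holds no RNA values, so the labelled cell type could not be checked against marker genes. The design text speaks of 6 samples in which Insm1 and Foxa2 were repeated, and whether a list pools repeats is not stated. With 1 list per factor no spread between cultures can be given, and intervals cover counting error only.

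Insm1, found in endocrine and neuronal precursor cells, binds DNA through zinc fingers, recruits co-repressor complexes and is required for the development of pancreatic endocrine cells. Neurod1, an activator of the basic helix-loop-helix family, binds E-boxes together with E proteins and is required for beta cell development and insulin expression. Foxa2 is a forkhead factor, known as a pioneer factor because it can bind its sites in closed chromatin. The study, by its title, concerns how Insm1 works together with both partners, and the sites described here are those where the lists show Insm1 without either.

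Sites with neither partner carried low Insm1 scores. The score is a whole number that the authors gave each site. Its definition is not stated, and scores are compared here only within a list, never between lists. Sites with neither partner had a median score of 106, with quartiles of 90 and 129 and a range from 76 to 3106. The lowest value, 76, is also the lowest score in the whole Insm1 list. The 12786 Insm1 sites with at least 1 partner had a median of 144.5, with quartiles of 109 and 204. The classes differed among themselves: the median was 113 with Foxa2 alone (quartiles 94 and 146), nearly as low as with neither, 139 with Neurod1 alone and 168 with both. Sites with neither and with any partner overlapped over most of their range, and 95% of the sites with neither partner scored at or under 190, a score that lies between the median and the upper quartile of sites with a partner.

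Across the Insm1 list the share of sites with neither partner was smaller in each higher score decile. In the lowest decile, with scores of 76 to 87, 923 of 1858 sites held neither partner (49.7%, Wilson interval 47.4 to 51.9%). In the fifth decile, with scores of 118 to 130, the share was 31.0% (28.9 to 33.3%), level with the share of sites holding both partners (30.1%, 28.0 to 32.3%). In the top decile, which starts at a score of 266, 62 of 1737 sites held neither partner (3.57%, 2.79 to 4.55%). This last share was 9.84% with partner sites above the median score, 6.33% with summits within 100 bp as the rule and 1.67% with sites widened by 500 bp on each side. Sites with Foxa2 alone went the same way, from 26.2% in the lowest decile to 6.91% in the highest, while sites with Neurod1 alone were 11.5% of the lowest decile, 21.1% in the seventh and 14.6% in the highest. Sites with neither partner were thus the most frequent class in the 5 lowest deciles and the least frequent in the 3 highest.

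**Figure D1:**
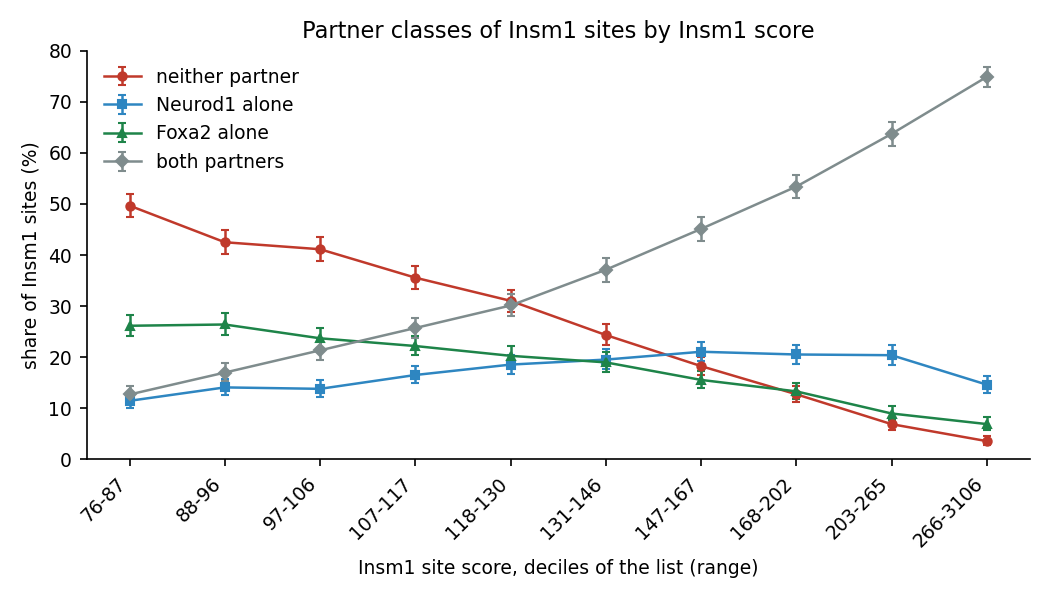
Share of Insm1 sites (y axis, percent) in each partner class against deciles of the Insm1 score (x axis, score range), with 95% Wilson intervals as bars. The line for neither partner runs from 49.7% down to 3.57%, and the line for both partners from 12.7% up to 74.9%.

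Sites with neither partner were narrower than the other Insm1 sites at every level of score. Their median width was 154 bp (quartiles 130 and 180 bp), compared with 182 bp (158 and 213 bp) for sites with a partner. It was 170 bp with Neurod1 alone, 175 bp with Foxa2 alone and 192 bp with both. Within score deciles the median for neither partner stayed between 149 and 160 bp, and in each of the 10 deciles it was the lowest of the 4 classes. The 62 members of the highest decile had a median width of 156 bp, close to that of the whole class, so their higher scores did not go with wider sites. The other classes were also nearly level between the lowest and highest deciles. Their medians were 169 and 165 bp with Neurod1 alone, 173 and 171.5 bp with Foxa2 alone, and 187 and 192 bp with both. The rule for overlap itself depends on width, because a wider site reaches a partner site more easily. When sharing was instead defined by summits within 100 bp of each other, sites with neither partner were narrower by 21 bp in place of 28 bp. That rule keeps most of the same members and adds others, giving 5439 sites. It therefore does not remove the dependence on width, whose part in the difference was not tested.

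**Figure D2:**
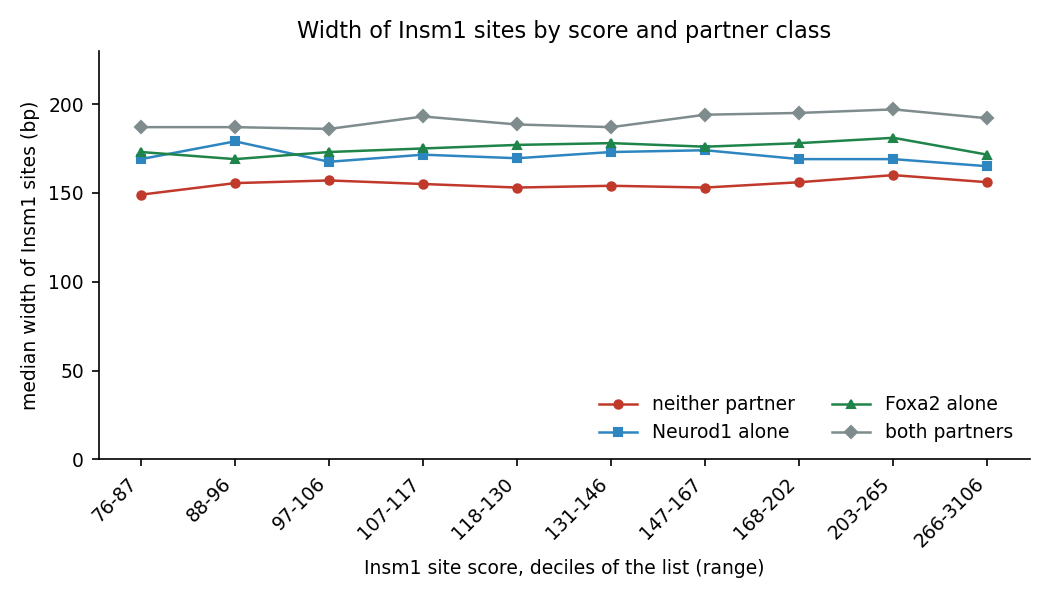
Median width of Insm1 sites in bp (y axis) against deciles of the Insm1 score (x axis, score range), 1 line per partner class. The line for neither partner lies between 149 and 160 bp and is the lowest in all 10 deciles.

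Within classes of similar width, sites with neither partner also had lower scores than sites with a partner. Widths can still differ inside a class. In the narrowest of 3 width classes, with sites of 52 to 158 bp, 2548 of 5819 sites held neither partner (43.8%), and their median score was 106, compared with 130 for sites with a partner. In the widest class, with sites of 195 to 526 bp, 754 of 5713 sites held neither partner (13.2%). Their median score was 103 there, compared with 151 for sites with a partner. The score of the sites with neither partner was thus much the same at all widths. Foxa2-alone sites were close to them in the narrowest class, at 109, and had 117 and 114 in the wider classes. Neurod1-alone sites had 136, 146 and 132, and sites with both partners 148, 174 and 173. The position of the summit, the inner position given for each site, did not set the class apart. It lay at a median of 51.8% of the site's width for neither partner and 50.6% for sites with a partner.

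Very narrow sites were a small fraction of the class and included its 3 highest scores. Among all Insm1 sites, 71 were at most 60 bp wide, and 32 of them held neither partner (45.1%, Wilson interval 34.0 to 56.6%), which is 0.686% of the class. Their median score was 112, with a range from 77 to 3106. Of the 10 highest-scoring sites with neither partner, 4 were of this kind, as were 6 of the 62 members in the highest Insm1 decile. The first, 52 bp wide, was on chromosome 1 at 197067782 to 197067834 (mm9), with a score of 3106, the highest in the Insm1 list. Its nearest Neurod1 site was 70 bp away and its nearest Foxa2 site 223 kb away. The next, of 52 bp on chromosome 18 (score 983) and of 53 bp on chromosome 17 at 36368214 to 36368267 (score 800), both lay more than 100 kb from any partner site. The fourth, also 53 bp wide, was on chromosome 8 at 73957002 to 73957055, with a score of 598 and the nearest partner site 27.1 kb away.

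Apart from the narrow sites, the strongest members mostly lay beside partner sites. The highest-scoring site wider than 60 bp was on chromosome 5 at 49650721 to 49650873, with a score of 736 and rank 72 in the Insm1 list. A Neurod1 site lay 498 bp away and a Foxa2 site 495 bp away. The exception was the second, on chromosome 4 at 41262002 to 41262158 (score 605), whose nearest Neurod1 and Foxa2 sites were 39.2 and 72.7 kb away. The third, 264 bp wide on chromosome 13 at 72586385 to 72586649 (score 566), had Neurod1 at 30 bp and Foxa2 at 163 bp. The sites on chromosome 2 at 124444793 to 124444948 (score 537) and on chromosome 14 at 100630321 to 100630509 (score 466) likewise had both partners close, at 262 and 249 bp and at 157 and 158 bp. The tenth-ranked site of the class, on chromosome 1 at 77007498 to 77007702 (score 459), missed a Neurod1 site by 19 bp and a Foxa2 site by 2 bp. Of the 6 wide sites among the 10 highest, 5 had both partners within 1 kb.

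This was a feature of high scores across the class. Among the 923 members of the lowest score decile, 90 had a partner site within 1 kb (9.75%, Wilson interval 8.0 to 11.8%), and 13 had both partners within 1 kb (1.41%, 0.825 to 2.39%). In the ninth decile the shares were 28.6% (21.2 to 37.3%) for any partner and 11.8% (7.14 to 18.8%) for both. In the highest decile 33 of 62 members had a partner site within 1 kb (53.2%, 41.0 to 65.1%), and 22 had both (35.5%, 24.7 to 47.9%). The median gap to a partner site was 15.3 kb in the lowest decile's members and 574 bp in the highest decile's. Of the 1737 Insm1 sites of the highest decile, 24 held neither partner, were wider than 60 bp and had no partner site within 1 kb.

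**Figure D3:**
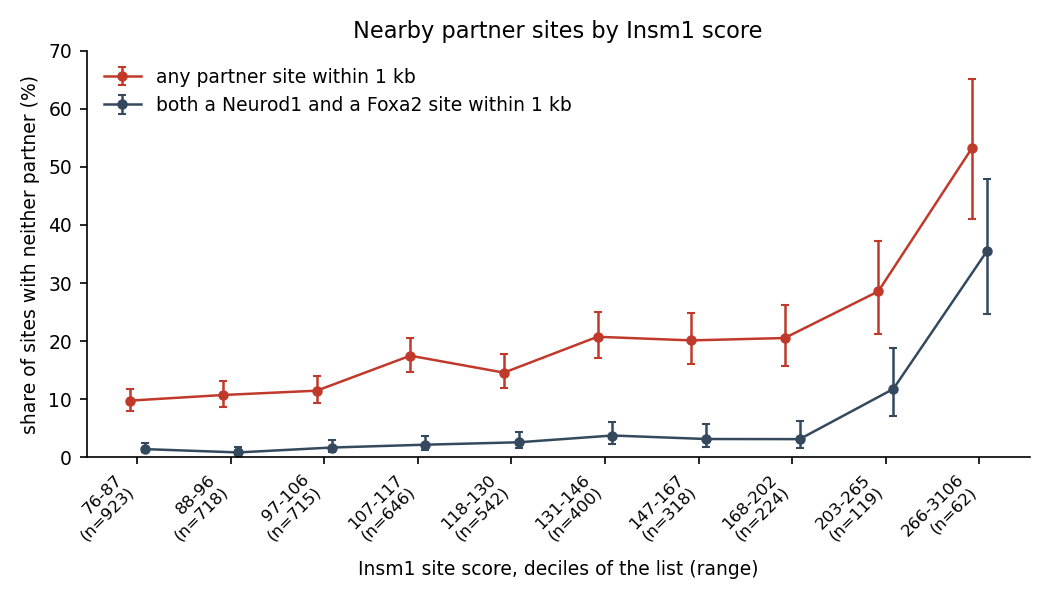
Share of sites with neither partner (y axis, percent) that had any partner site, or both a Neurod1 and a Foxa2 site, within 1 kb, against deciles of the Insm1 score (x axis, score range and number of members), with 95% Wilson intervals. Shares were 9.75% and 1.41% in the lowest decile and 53.2% and 35.5% in the highest.

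A larger share of near misses at high scores was also seen where a single partner was missing. A Neurod1 site lay within 1 kb of 2.06% of the Foxa2-alone sites in the bottom Insm1 decile and of 22.5% in the top one. The same share among sites with neither partner was 4.66% and 46.8%. A Foxa2 site lay within 1 kb of 8.45% of the Neurod1-alone sites in the bottom decile and 23.2% in the top one, compared with 6.50% and 41.9% of the sites with neither partner. Over the whole classes, Neurod1 was nearby at 8.38% (7.62 to 9.21%) of sites with neither partner and 5.70% (4.95 to 6.56%) of Foxa2-alone sites, and Foxa2 at 9.36% (8.56 to 10.2%) of sites with neither partner and 13.9% (12.7 to 15.2%) of Neurod1-alone sites.

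The near misses were concentrated at short distances. Of the 701 members with a partner site within 1 kb, 264 had Neurod1 only, 310 had Foxa2 only and 127 had both. Gaps under 50 bp were found at 100 members, and gaps of 50 to 99 bp at 70. The 2 following intervals of 50 bp held 74 and 70 members, the next held 46 (200 to 249 bp), and the last, 950 to 999 bp, held 19. Summits lay a median of 410 bp apart (quartiles 261 and 664 bp) and never closer than 78 bp. No 2 sites within the Insm1 list lay closer than 345 bp, and within the Neurod1 and Foxa2 lists the smallest gaps were 403 and 405 bp, so short gaps occurred between the lists and not within them.

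Where both partners were near, they were mostly near at the same place. At 104 of the 127 members with both partners within 1 kb, the nearest Neurod1 and Foxa2 sites overlapped each other (81.9%). At 120 they lay on the same side of the Insm1 summit, which for the 104 follows from the overlap. The 81.9% was not compared with a share over the whole lists. The 127 members had a median Insm1 score of 133 (quartiles 107 and 215.5), compared with 104 (90 and 126) for members with no partner within 1 kb. Over all members with a partner within 1 kb, the neighbouring Foxa2 sites were of ordinary strength in their list and the Neurod1 sites somewhat weaker. The median score was 65 for the Neurod1 sites near 391 members, compared with 72 in the whole Neurod1 list, and 155 of the 391 scored above 72. It was 44 for the Foxa2 sites near 437 members, compared with 42 in the whole Foxa2 list, and 227 of the 437 scored above 42. The partner sites beside the 127 members with both were not scored separately.

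Sites at the border of the rule had similar Insm1 scores on both sides. The 25 members within 10 bp of a partner site had a median score of 119, and the 17 partner-holding sites that overlapped by at most 10 bp had a median of 124. Just outside the border, a site on chromosome 4 at 102081514 to 102081843 (score 126) touched a Foxa2 site, and a site on chromosome 2 at 158593764 to 158593934 (score 77) touched a Neurod1 site in the same way. Neither pair shares a base when the end is read as lying outside the site, as done here. The files do not say how ends are counted, and with the end inside the site these 2 would not be members. The sites on chromosome 8 at 73153750 to 73153934 (score 120) and on chromosome 12 at 12642292 to 12642444 (score 119) missed a Neurod1 site by 1 bp. Just inside it, the smallest overlaps were 1 bp with Foxa2 on chromosome 16 at 92349484 to 92349690 (score 181), 2 bp with Neurod1 on chromosome 1 at 10027943 to 10028154 (score 124) and 2 bp with Foxa2 on chromosome 7 at 85700829 to 85700972 (score 96). Overlaps of 3 and 6 bp followed on chromosome 4 at 47661769 to 47661862 (score 114) and on chromosome 10 at 87276030 to 87276168 (score 142). Such marginal overlaps were few. Only 185 of the 12786 sites with a partner had a measured overlap of at most 50 bp, and its median was 167 bp. The measure is the shorter distance from the start of either site to the end of the other. Where a site lies inside the other it exceeds the shared bases. The median may thus be too high and the count of 185 too low.

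Most sites with neither partner were not near misses. The median gap to the nearest partner site was 12.8 kb (quartiles 3.36 and 34.3 kb), and 2623 members (56.2%) lay more than 10 kb from any partner site. The nearest Foxa2 site was a median of 19.7 kb away and the nearest Neurod1 site 29.3 kb. Foxa2 was the nearer partner at 3009 members and Neurod1 at 1647, with 11 ties. The Foxa2 list holds 28379 sites and the Neurod1 list 14607. With the Foxa2 list limited to its 14607 highest-scoring sites, the median Foxa2 gap became 48.3 kb, and Neurod1 was the nearer partner at 2561 of the same members and Foxa2 at 2093. That limit changed the length of the list and the strength of its sites together.

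**Figure D4:**
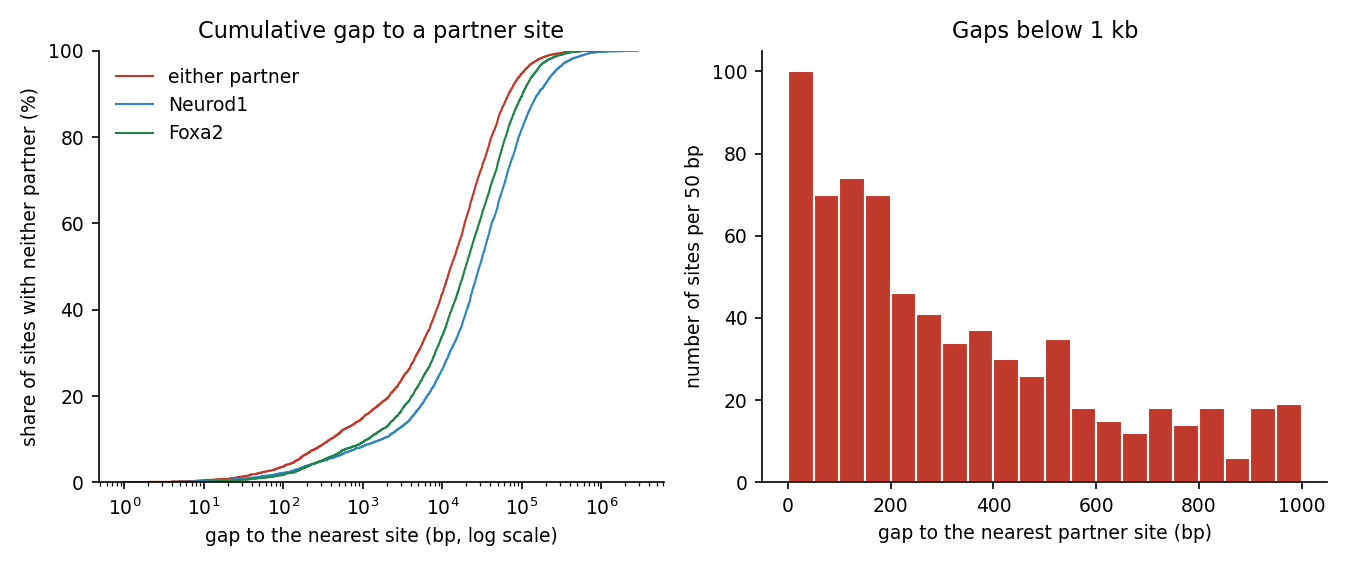
Left, cumulative share of sites with neither partner (y axis, percent) against the gap to the nearest partner, Neurod1 or Foxa2 site (x axis, bp, log scale, touching sites drawn at 1 bp). Right, number of members (y axis) per 50 bp of gap below 1 kb (x axis); the first bar holds 100 members and the last 19.

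Beyond 1 kb the score no longer went with the gap. Members with a gap under 100 bp had a median score of 121.5, those from 100 to 300 bp 118, those from 300 bp to 1 kb 111.5, and those from 1 to 10 kb 104. The medians were 105 from 10 to 100 kb and 107 beyond 100 kb. The last group, 247 members on all 20 chromosomes of the list (5.29%), had a highest score of 983, at the 52 bp site on chromosome 18. Another Insm1 site lay within 10 kb of only 6 of them.

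The members farthest from any partner were weak sites. The farthest, 77 bp wide, was on chromosome 7 at 67767584 to 67767661, with a score of 98 and its nearest partner, a Foxa2 site, 956 kb away. The others were on chromosome 13 at 83008877 to 83009009 (score 92, 726 kb from a partner), on chromosome 16 at 60606269 to 60606418 (score 80, 559.7 kb), on chromosome 11 at 26287312 to 26287474 (score 89, 541 kb) and on chromosome 5 at 41344292 to 41344455 (score 93, 537 kb). All 5 had Foxa2, the partner with the longer list, as the nearer partner and scored below the median of the class.

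Partner sites were less dense around the members than around sites with both partners. Within 50 kb of the summit, sites with neither partner had a mean of 1.30 Neurod1 and 1.76 Foxa2 sites. Sites with both partners had 1.42 Neurod1 and 2.42 Foxa2 sites in the same window, not counting the 1 overlapping site of each list. No Foxa2 site lay in the window of 26.0% of sites with neither partner, compared with 15.7% of those with both. For Neurod1 the shares were 35.7 and 33.7%, and 42.1% for Foxa2-alone sites. The means for other Insm1 sites were 1.39 and 1.54. Foxa2-alone sites had fewer Neurod1 sites (mean 1.12) and fewer other Insm1 sites (mean 1.25) in the window than sites with neither partner. A low density of Neurod1 or Insm1 sites was thus not limited to the members. For Foxa2 sites the members had the lowest mean of all classes. It was 1.96 with Neurod1 alone and 2.06 with Foxa2 alone, not counting an overlapping Foxa2 site.

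The nearest Insm1 neighbours of sites with neither partner were themselves without a partner more often than the neighbours of sites with Foxa2 alone or with both, and about as often as those of Neurod1-alone sites. The nearest other Insm1 summit was a median of 27.9 kb away, and 1005 members (21.5%, 20.4 to 22.7%) had one within 10 kb (11.04% when only Insm1 sites above the median score were kept). The corresponding shares were 22.7% (21.3 to 24.2%) with Foxa2 alone, 27.7% (26.1 to 29.3%) with Neurod1 alone and 28.6% (27.5 to 29.7%) with both partners. The nearest Insm1 neighbour itself held neither partner at 31.0% (29.7 to 32.3%) of members, compared with 30.6% (28.9 to 32.3%) of Neurod1-alone sites, 22.2% (20.8 to 23.6%) of Foxa2-alone sites and 22.2% (21.2 to 23.2%) of sites with both. The commonest neighbour of a member was nevertheless a site with both partners, at 34.0%. Neighbouring sites are not independent of each other, so these intervals are too narrow.

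Along the chromosomes, 2289 members (49.0%) stood singly between Insm1 sites that held a partner, and 251 were in 43 runs of 5 or more consecutive Insm1 sites with neither partner. The longest run held 12 sites, on chromosome 3 between 88274880 and 89199037 (924 kb). Their scores were 82 to 189, with a median of 98.5. The run began 123 bp from a Foxa2 site, at the site with the score of 189, and its sixth site, at 88968690 to 88968783 (score 93), was the farthest from a partner, 86.5 kb from Neurod1. The span also held 5 Neurod1 and 6 Foxa2 sites, which by the definition of a run do not overlap an Insm1 site. The second run, of 11 sites, lay on the same chromosome between 89802558 and 94114029, a span of 4.31 Mb in which every member was at least 31.8 kb from a partner site. The span held 4 Neurod1 and 6 Foxa2 sites. It was sparse in Insm1 sites, with no others than these 11, compared with 6.27 per Mb over chromosome 3. The second run and the following region were picked after the values were seen. The 1 Mb window with the most members began at 76 Mb on chromosome 15, where 16 of 23 Insm1 sites held neither partner (69.6%), compared with a median of 27.3% over the 734 windows with at least 10 Insm1 sites.

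The share of Insm1 sites with neither partner differed between chromosomes. Among autosomes it was lowest on chromosome 6 (187 of 822 sites, 22.7%, Wilson interval 20.0 to 25.7%) and chromosome 13 (23.9%, 20.8 to 27.3%). It was highest on chromosome 11 (361 of 1142 sites, 31.6%, 29.0 to 34.4%), chromosome 17 (30.2%, 27.0 to 33.7%) and chromosome 7 (29.7%, 27.0 to 32.6%). On the X chromosome 23 of 170 Insm1 sites held neither partner (13.5%, 9.19 to 19.5%), and 28.8% held Foxa2 alone. Members numbered 3.05 per Mb of span on chromosome 11, 1.28 on chromosome 6 and 0.143 on X.

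Chromosomes dense in Insm1 sites had the larger share of sites with neither partner. Across the 19 autosomes Pearson's r between Insm1 sites per Mb and this share was 0.82 and Spearman's rho 0.83. Without the 2 autosomes farthest from the median density, r was 0.70. The share with Neurod1 alone went the same way (r = 0.74), and the shares with Foxa2 alone (r = -0.69) and with both (r = -0.74) went the other way. The 4 shares sum to 100% on each chromosome and all points come from the same 3 lists, so the 4 values are not independent. The density also counts the members, and the number of Insm1 sites is the denominator of each share. Density and share are thus not independent measures, and the relation was not tested. The median score of the members was much the same on all chromosomes, from 101 on X to 111 on chromosome 16.

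**Figure D5:**
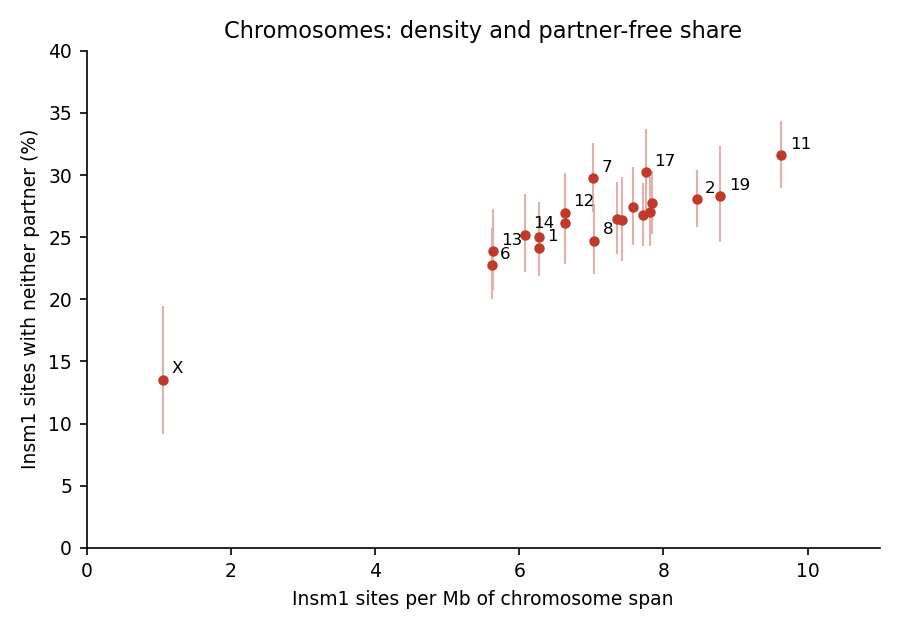
Share of Insm1 sites with neither partner (y axis, percent, with 95% Wilson intervals) against Insm1 sites per Mb of chromosome span (x axis), 1 point per chromosome, with 12 of the 20 chromosomes named. X is lowest at 13.5%, and chromosome 11, the densest, is highest at 31.6%.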

How the data were processed

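The submitters' processing notes name the tools CASAVA, Bowtie 0.12.7 and MACS 1.4 and the mouse genome build mm9. Not given in the sources used here are settings, threshold, control and the handling of repeats. Each deposited list lacks a header and gives a chromosome, start, end, inner position (read as the summit) and a whole number, treated as the authors' score of unknown definition. No read counts are in the lists, so depth is unknown.

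Gaps were taken edge to edge and distances between Insm1 sites summit to summit. Chromosome span runs from the first to the last site of any list. Score deciles keep tied scores together. No genome or annotation of this build was used, so the planned gene, promoter and motif comparisons were not run. The members, lists and settings were chosen with earlier results of these data known. Named sites follow a rule: the 10 highest-scoring members, the 5 highest wider than 60 bp, the 5 farthest from a partner, 5 on each side of the overlap border, and the longest run. Overlaps were checked with bedtools 2.31.1, which found the same 4667 members, and gaps on simulated data, where 100% of 2000 planted gaps were recovered. The planted gaps were short and lay only behind the end of a site, so long gaps were not covered by this check. Python 3.11.15, pandas 2.3.3, numpy 2.4.6, scipy 1.17.1 and matplotlib 3.10.9 were used.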

Additional observations from a re-analysis of the deposited data

How the results depend on the processing

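Over 6 results and 7 alternatives, 21 of 42 values stayed within the main value's interval. The score and width differences, which alone could change sign, kept it under all 7. The alternative that counts touching ends as overlap was added after the data were seen and moved none of the 6. In the order share of Insm1 sites with neither partner, partner within 1 kb, and share of the highest decile, the main values were 26.74%, 15.02% and 3.57%. They became 31.16%, 27.08% and 6.33% with summits within 100 bp as the rule, 22.72%, 5.19% and 1.67% with sites widened by 500 bp on each side (the gap then taken from the widened edges), 46.10%, 5.62% and 9.84% with partner sites above the median of their list, and 32.88%, 10.18% and 5.24% with the Foxa2 list cut to 14607 sites. Among Insm1 sites above the median score the first 2 were 13.05% and 23.15%. The 27.08% counts overlapping sites with summits more than 100 bp apart as having a partner within 1 kb. The median score difference from sites with a partner, -38.5, was -46 with partner sites above the median, -35 with Insm1 sites above the median and -42 with the limited Foxa2 list. The width difference, -28 bp, was -21 bp with the summit rule and -25 bp with partner sites above the median. Another Insm1 site lay within 10 kb of 23.07% of members with partner sites above the median and 11.04% with Insm1 sites above the median, compared with 21.53%; the latter list holds fewer sites by construction. Removing sites of at most 60 bp from all lists changed no value beyond its interval. No paired analysis was possible because each factor has 1 list and no test was made. Depth limits cannot be given, since no read counts were used.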
